A study of Mus musculus with 9 samples.

Results

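The membrane mucins Muc1, Muc4, Muc15 and Muc20 were followed in mammary tumours of mice that carry an activated rat Neu gene. The 4 genes were chosen by name, as mucins known to be anchored in the cell membrane of mammary epithelium, with earlier results of these data known. Each had exactly 1 row among the 18484 genes measured by RNA sequencing in every tumour. Membrane mucins are long proteins whose outer part is built of serine- and threonine-rich repeats that carry dense O-linked sugars, held on the apical face of epithelial cells by a single membrane-spanning segment. In the mammary gland Muc1 and Muc15 are found on the membrane of the milk fat globule. Muc4 carries domains that resemble epidermal growth factor and is a known binding partner of Erbb2, the receptor encoded by the locus that holds the Neu gene. Muc20 is known to bind the Met receptor.

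All mice were BlgCre-NeuKI animals of a mixed FVB and C57Bl6 background. They carried 1 copy of a Cre transgene under the β-lactoglobulin (Blg) promoter, which acts mainly in luminal cells that lack oestrogen receptor, and 1 activated Neu allele knocked into the endogenous Erbb2 locus behind a removable stop cassette. Every tumour, the controls of each comparison included, therefore came from a mouse with that allele. In MS1349.1 the study's digital droplet PCR gave no evidence of loss of the stop cassette or of amplification of the locus. Each library came from 1 snap-frozen tumour. There were 5 tumours labelled high-amplified at the Erbb2/Neu locus. By the study's methods that label rests on quantitative PCR of tumour DNA. Other DNA assays of the same study did not class MS1218.2 as high, and for MS1213.1 they were divided. MS1213.1, MS1163.1 and MS1163.2 came from virgin mice, MS1218.2 and MS1155.3 came from parous mice, and all 5 were adenocarcinomas of no special type, AC(NST). The 3 not/low-amplified tumours all came from parous mice. MS1166.1 was an AC(NST), and MS1210.1 and MS1349.1 were adenosquamous carcinomas (ASQC), in which glandular and keratinizing areas mix. MS1156.1 was a sarcoma of a parous mouse, labelled not/low-amplified. MS1163.1 and MS1163.2 carry the same mouse number, so that the 5 high-amplified tumours came from 4 mice and the 3 virgin tumours from 2. Amplification, parity and histotype overlapped in this design, so that their parts in a difference cannot be fully told apart.

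Between 12501225 and 23912429 reads were counted per tumour. Levels are given as normalized counts, the reads of a gene after division by a size factor for each library. As a check of the labels, Erbb2 lay between 5284 and 105019 in the high-amplified tumours and between 1532 and 2783 in the not/low-amplified tumours, without overlap (log2 fold change 4.16 ± 1.13 SE, edgeR adjusted p = 0.0879). The Neu insert is a rat sequence, and how its reads were placed on mouse Erbb2 is not given in the sources used here, so Erbb2 levels may miss part of them. The 8 luminal epithelial markers, keratins, claudins and adhesion proteins among them, summed to at least 37497 in every epithelial tumour and to 484 in the sarcoma. Their sum was 37497 to 60812 in the high-amplified and 91286 to 152576 in the not/low-amplified tumours, so this marker list moved with amplification status too. None of the 8 markers was at 0 in any tumour. No tested gene of the 12 marker lists examined passed the test for amplification, against 0.921% of all genes tested. Not every marker had enough reads to be tested, and of the 9 squamous keratinocyte markers 5 were. In bulk tissue fewer cells of a type and less RNA per cell cannot be told apart.

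On the mouse genome build GRCm38, Muc1 (ENSMUSG00000042784) lies on chromosome 3 from 89229057 to 89233381 on the plus strand. Muc15 (ENSMUSG00000050808) lies on chromosome 2 from 110721340 to 110739527 on the plus strand, inside the gene Ano3 on the other strand, with which it shares 61 bases of exon. Muc4 (ENSMUSG00000079620, 32735886 to 32782391, plus strand) and Muc20 (ENSMUSG00000035638, 32777419 to 32797435, minus strand) meet tail to tail on chromosome 16 and share 627 bases of exon. The strand setting of the counting is not given in the sources used here, and without strand the reads of those bases cannot be assigned to either gene. The longest exon of Muc4 spans 6931 of its 11757 exon bases. Only uniquely placed reads were kept, which can lower the count of a repetitive exon in every library alike.

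The 250 bases before the start of transcription are shown for Muc1 and Muc4, the members whose high- and not/low-amplified tumours did not overlap, and for Muc20, which shares a locus with Muc4 and had overlapping groups. The sequences are from RefSeq on GRCm38.p6: chr3:89228806-89229055 on the plus strand for Muc1, chr16:32735636-32735885 on the plus strand for Muc4 and chr16:32797436-32797685 on the minus strand for Muc20. Of the members, 3 of 4 were matched to a promoter. Capitals mark matches, on either strand, to the TATA box TATAAA, the GC box GGGCGG, the Ets core GGAAG, the E-box CANNTG, the Tcf/Lef motif CTTTGAT and the Stat motif TTCNNNGAA, and no marked matches overlap.
Muc1: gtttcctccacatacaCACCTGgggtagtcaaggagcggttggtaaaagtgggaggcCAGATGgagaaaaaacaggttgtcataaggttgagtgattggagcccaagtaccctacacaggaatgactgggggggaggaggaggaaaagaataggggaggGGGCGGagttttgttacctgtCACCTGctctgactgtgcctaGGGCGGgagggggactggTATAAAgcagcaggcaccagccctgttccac
Muc4: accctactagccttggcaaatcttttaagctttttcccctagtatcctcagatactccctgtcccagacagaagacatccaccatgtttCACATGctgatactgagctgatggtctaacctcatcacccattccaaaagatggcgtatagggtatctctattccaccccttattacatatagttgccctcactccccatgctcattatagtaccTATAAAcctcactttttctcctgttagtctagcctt
Muc20: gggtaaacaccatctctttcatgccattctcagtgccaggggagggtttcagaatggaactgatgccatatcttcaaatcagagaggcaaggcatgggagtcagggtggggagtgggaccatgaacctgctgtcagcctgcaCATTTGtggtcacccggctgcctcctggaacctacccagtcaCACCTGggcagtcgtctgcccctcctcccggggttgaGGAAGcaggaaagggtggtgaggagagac

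The promoters of Muc1 and Muc4 each held a TATA box, beginning 31 and 36 bases before the start, and that of Muc20 held none. Among 32851 RefSeq promoters of the same length, 12.4% held this motif. The Muc1 promoter had 2 GC boxes, 91 and 49 bases before the start, a motif in 32.7% of all promoters, and the other promoters shown had none. Each of the 3 promoters had an E-box, as 66.2% of all promoters did. The Ets core was found only in that of Muc20, 29 bases before the start, against 64.1% of all promoters. The Tcf/Lef and Stat motifs, in 3.21% and 7.02% of all promoters, had no match in the 3. A match is a run of letters and not a measured binding site.

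Muc4, the Erbb2-binding mucin, had the widest range of the 4 genes, 3841-fold over the 8 epithelial tumours. The lowest level, in MS1163.1, came from 5 reads, so that this fold is imprecise. Among the high-amplified tumours the parous MS1155.3 had a normalized count of 156 and MS1218.2 of 36.1, and the virgin MS1213.1 had 27.0, MS1163.2 had 12.4 and MS1163.1 had 5.25. Of the not/low-amplified tumours, MS1349.1 reached 20154, MS1210.1 had 3218 and MS1166.1 had 663. Every not/low-amplified tumour was above every high-amplified tumour, the nearest pair, MS1166.1 and MS1155.3, being 4.25-fold apart. The means were 47.3 ± 61.9 (SD, n = 5) and 8011 ± 10593 (SD, n = 3). The log2 fold change of high-amplified against not/low-amplified tumours was -7.41 ± 1.32 (SE, edgeR adjusted p = 0.0389). Muc4 was thus called, which here means an adjusted p under 0.05 and a change of over 2-fold.

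Within the not/low-amplified group the ASQC tumours held 4.86 and 30.4 times as much Muc4 mRNA as the AC(NST) tumour. Within the high-amplified group the virgin mice's tumours (5.25 to 27.0) were below those of the parous mice (36.1 and 156). In descending order the levels were therefore those of not/low-amplified ASQC, not/low-amplified AC(NST), high-amplified parous and high-amplified virgin tumours, and no neighbours in this order overlapped. The last step rested on few reads, 39 in MS1218.2 against 28 in MS1213.1, with 10 in MS1163.2 and 5 in MS1163.1. How many of all genes show such an order was not counted. The steps between these small subgroups were not tested, except parity within the high-amplified tumours (two-sided exact permutation test, p = 0.2, n = 3 and 2 tumours, where the smallest p possible is 0.2). The 3 virgin tumours of that test came from 2 mice and were counted singly. Squamous keratinocyte markers, 9 keratins and envelope or junction genes, summed to 6321 in MS1349.1, 35766 in MS1210.1 and 327 to 1301 in the 6 AC(NST) tumours, where Flg and Lor were at 0 throughout. The sum of the basal and myoepithelial markers was also highest in MS1210.1, at 57157, with Krt14 at 51708. Krt5 was highest there too, but Acta2, Myh11 and Cnn1 were highest in MS1218.2 (11087, 1455 and 390) and Trp63 in MS1349.1 (1325). MS1349.1, the highest of the 8 tumours for each of the 4 mucins, was second to MS1210.1 in the squamous sum. Krt6a (14818 against 2496), Krt16, Sbsn and Dsg3 were higher in MS1210.1. Krt1 (113 against 27.4), Krt10 (140 against 42.9), Ivl (60.6 against 30.9), Lor and Flg were higher in MS1349.1. MS1349.1 had the highest sum of the alveolar list, at 597952 against 12936 to 130241 in the other epithelial tumours. The milk casein gene Csn2 was 420672 there and at most 4146 in the others. Elf5, Wap and Lalba were also highest in MS1349.1. Csn3 was lower there than in MS1218.2 (114921 against 118257), and Kit, at 4157, was at its lowest of the 8 tumours. The part of these lists in the mucin levels was not tested.

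Muc1, the mucin of the luminal surface of most glands, was also higher in every not/low-amplified tumour. The high-amplified MS1218.2 had a normalized count of 459, MS1213.1 of 269, MS1155.3 of 222, MS1163.1 of 145 and MS1163.2 of 52.2. The not/low-amplified MS1349.1 had 2252, MS1166.1 had 2117 and MS1210.1 had 690.0. The groups did not overlap, but MS1218.2 and MS1210.1 were only 1.5-fold apart. The means were 229 ± 152 (SD, n = 5) and 1687 ± 866 (SD, n = 3), and the log2 fold change was -2.85 ± 0.62 (SE, edgeR adjusted p = 0.0611), so that Muc1 did not pass the threshold. Unlike Muc4, Muc1 was nearly as high in the not/low-amplified AC(NST) MS1166.1 as in the ASQC MS1349.1, which was 1.06-fold above it. The other ASQC tumour was 3.07-fold below MS1166.1.

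Muc15, the milk fat globule mucin, had groups that overlapped widely. The high-amplified MS1213.1 had a normalized count of 13915, MS1155.3 of 12421, MS1218.2 of 4434, MS1163.2 of 1645 and MS1163.1 of 1289.6. The not/low-amplified MS1349.1 had 16509, MS1210.1 had 8485 and MS1166.1 had 499.6. The highest and the lowest tumour of the 8 were both not/low-amplified. The log2 fold change was -0.33 ± 1.02 (SE, edgeR adjusted p = 0.869), and its sign depended on the tumours and the tool. In the AC(NST) tumours alone, where MS1166.1 stands by itself against the 5 high-amplified tumours, the log2 fold change was 3.73 ± 1.62 (SE, edgeR adjusted p = 0.258).

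Muc20, the Met-binding mucin, varied least among the high-amplified tumours, over 3.67-fold. The high-amplified MS1155.3 had a normalized count of 328, MS1163.1 of 252, MS1218.2 of 229, MS1213.1 of 153 and MS1163.2 of 89.5. The not/low-amplified MS1349.1 had 739, MS1166.1 had 169 and MS1210.1 had 114. MS1349.1 was the highest tumour, and the other not/low-amplified tumours lay inside the high-amplified range. The log2 fold change was -0.69 ± 0.63 (SE, edgeR adjusted p = 0.536), and it turned to 0.61 ± 0.54 without MS1349.1.

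**Figure D1:**
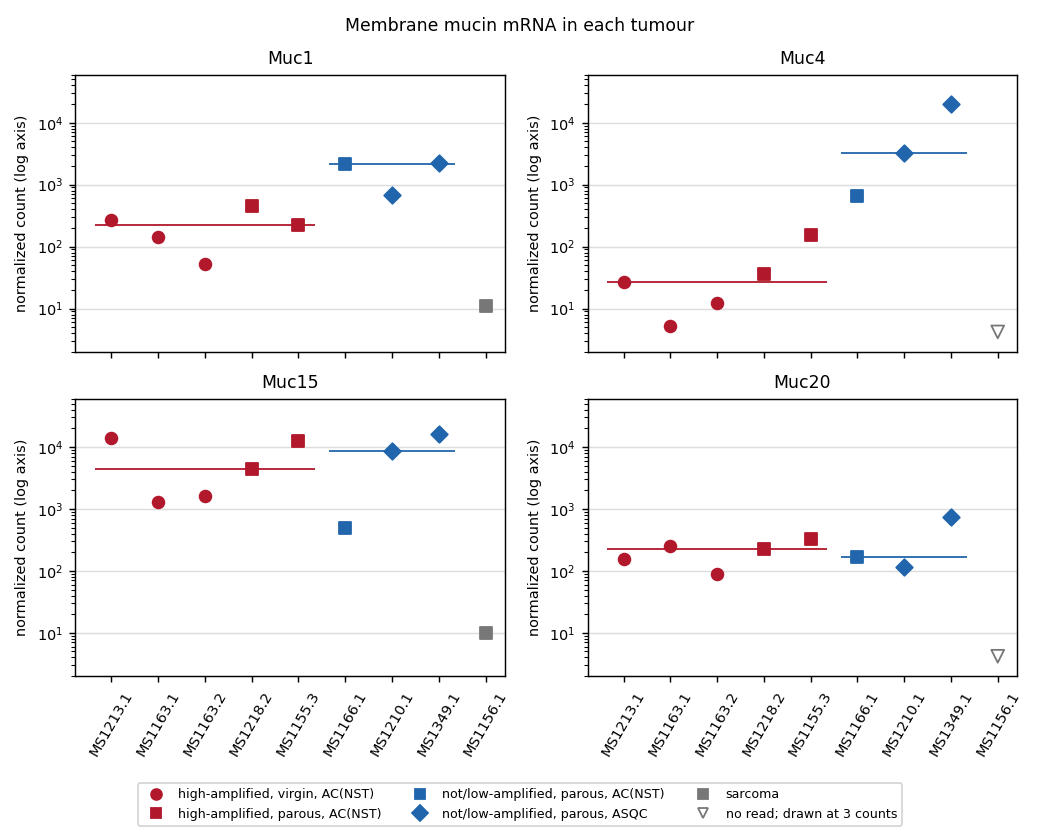
Normalized count (log axis) of each membrane mucin in each tumour, with a line at the median of the 5 high-amplified (red) and 3 not/low-amplified (blue) tumours; open triangles mark 0 reads in the sarcoma, drawn at the level of 3 counts. Muc4 and Muc1 show no overlap between the red and blue points, whereas Muc15 and Muc20 do.

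Of the 4 membrane mucins, 1 (Muc4) was called between high- and not/low-amplified tumours, against 0.921% of the 14007 genes tested. For 2 of the 4, Muc1 and Muc4, every not/low-amplified tumour lay above every high-amplified tumour, against 8.04% of the genes tested. The median log2 fold change of the 4 was -1.77 and that of all genes tested was 0.02. Because the 4 were chosen with earlier results of these data known, these shares are no test of the family. In a two-sided exact permutation test of the log2 levels (56 splits, n = 5 and 3), Muc1 and Muc4 each gave p = 0.0357, the smallest p this design allows, and Muc15 and Muc20 gave p = 0.893 and p = 0.643. These p-values are not adjusted. With the tumours of mouse MS1163 averaged, an alternative added after the data were seen, 35 splits of 4 against 3 mice remained, and Muc1 and Muc4 each gave an exact permutation p = 0.0571, again the smallest p possible. Relative to 1000 normalized counts of the summed luminal markers, a scale chosen after the data were seen, Muc4 still spanned 0.119 to 2.91 in high-amplified and 4.34 to 191 in not/low-amplified tumours. On that scale the Muc1 groups nearly met, at 7.55 in MS1218.2 and 7.56 in MS1210.1.

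The calls depended on the tumours in the fit. Without MS1218.2, which had the highest summed endothelial (10794) and macrophage (35138) markers, Muc1 was called (edgeR adjusted p = 0.024) as well as Muc4 (edgeR adjusted p = 0.0324), among 9.08% of genes. Its fibroblast markers, at 374435, were also the highest of the epithelial tumours, the next being 114222, and the study's purity estimate set this tumour apart as the least pure. The part of those cell types in the Muc1 level of MS1218.2 was not tested. Muc4 was called in 2 of the 8 fits that left out 1 tumour, those without MS1218.2 and without MS1166.1, and its edgeR adjusted p was 0.0593 to 0.0875 in the other 6. With parity as a covariate its log2 fold change was -6.39 ± 1.64 (SE, edgeR adjusted p = 0.202), and with MS1163.1 and MS1163.2 summed as 1 sample -7.16 ± 1.42 (SE, edgeR adjusted p = 0.0832). In the AC(NST) tumours alone Muc4 was at -3.84 ± 1.17 (SE, edgeR adjusted p = 0.155) and Muc1 stood at -3.22 ± 0.76 (SE, edgeR adjusted p = 0.104). DESeq2, the tool of the study, called both Muc1 (DESeq2 adjusted p = 3.6e-04) and Muc4 (DESeq2 adjusted p = 5.86e-10), among 10.8% of the genes it tested.

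**Figure D2:**
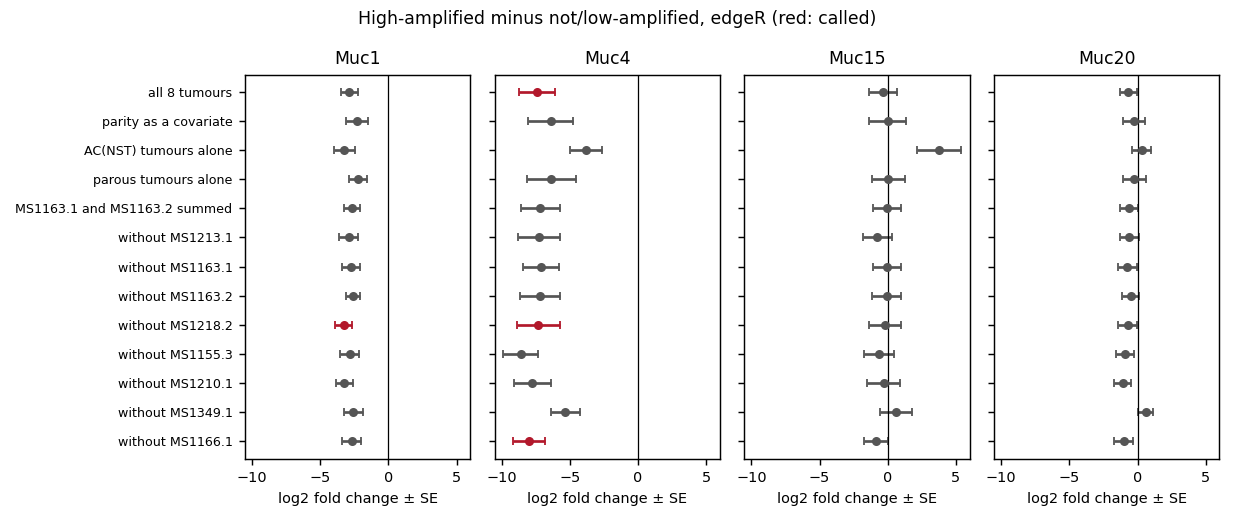
Log2 fold change of high-amplified minus not/low-amplified tumours for each membrane mucin (points, with bars of 1 SE) from edgeR with all 8 epithelial tumours, with a parity covariate, in subsets and with each tumour left out; red points were called. Muc1 and Muc4 stay below 0 in every fit shown, and Muc15 and Muc20 cross 0.

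The comparison of ASQC with AC(NST) tumours asked whether the mucins follow histotype. None of the 4 was called, against 0.236% of genes. Muc4 had the largest difference, with a log2 fold change of 6.32 (edgeR adjusted p = 0.181) and with both ASQC tumours 4.86-fold or more above every AC(NST) tumour. The share of all genes without overlap by histotype was not counted. The log2 fold changes of Muc1 (1.47 ± 1.06 SE), Muc15 (1.12 ± 1.04 SE) and Muc20 (1.08 ± 0.64 SE) did not pass either, with edgeR adjusted p of 0.720, 0.798 and 0.662. Without MS1166.1 this comparison splits the tumours as amplification does, and Muc4 was then called (log2 fold change 7.96, edgeR adjusted p = 0.0297).

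In virgin against parous mice none of the 4 was called by edgeR, and neither was any of the 14007 genes (0%), 1984 of which had an unadjusted p under 0.05. Muc4 was 5.25 to 27.0 in the 3 virgin and 36.1 to 20154 in the 5 parous mice's tumours, without overlap (log2 fold change -8.32, edgeR adjusted p = 0.28). The nearest pair, MS1213.1 and MS1218.2, was 1.34-fold apart, at 28 and 39 reads. The share of all genes without overlap by parity was not counted. Muc1 was 52.2 to 269 in virgin and 222 to 2252 in parous mice's tumours, with overlap (log2 fold change -2.86, edgeR adjusted p = 0.303). With amplification as a covariate Muc4 moved to -2.66 ± 1.30 (SE, edgeR adjusted p = 0.684) and Muc1 to -1.13 ± 0.71 (SE, edgeR adjusted p = 0.684). Without it DESeq2 called both Muc1 (DESeq2 adjusted p = 0.0118) and Muc4 (DESeq2 adjusted p = 2.23e-04), among 3.57% of genes. All 3 not/low-amplified tumours were in the parous group. These parity fits counted the 3 virgin tumours, which came from 2 mice, singly. Within the 5 high-amplified tumours the mean of Muc1 was 155 ± 109 (SD, n = 3 tumours of 2 mice) in virgin and 340.4 ± 168 (SD, n = 2) in parous mice. That of Muc20 was 165 ± 81.8 (SD, n = 3 tumours of 2 mice) and 279 ± 70.6 (SD, n = 2).

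Levels of different genes were compared per kilobase of exon. On this scale Muc15 was the highest of the 4 in 7 of 8 epithelial tumours and made up 61.8% to 96.2% of their sum in those tumours. MS1166.1 was the exception. There Muc1 made up 79.1% of the sum and Muc15 12.3%. Muc4 was the lowest of the 4 in all 5 high-amplified tumours, at 0.0566% to 0.361% of the sum, and held 22.9% in MS1349.1, 9.20% in MS1210.1 and 4.94% in MS1166.1. Muc20 was the lowest in the 3 not/low-amplified tumours. In MS1349.1 the level of Muc4 per kilobase, 1714, exceeded that of Muc1, 960.1. The sum of the 4 ran from 486 in MS1163.1 to 7484 in MS1349.1.

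**Figure D3:**
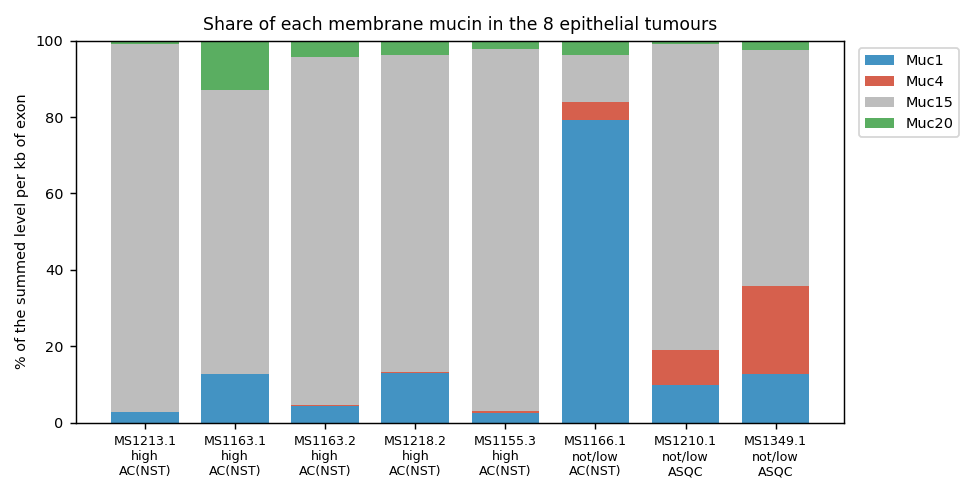
Stacked bars of the percentage that each membrane mucin contributes to the summed normalized count per kilobase of exon of the 4 genes, in each epithelial tumour. Muc15 fills most of every bar but that of MS1166.1, where Muc1 makes up 79.1%, and Muc4 is visible mainly in the 3 not/low-amplified tumours.

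The 2 tumours with the number of mouse MS1163 were alike in Muc15 (1.28-fold apart). Muc1 was 2.77-fold and Muc20 2.81-fold higher in MS1163.1. Muc4 was 2.37-fold higher in MS1163.2, but on only 10 reads there and 5 in MS1163.1. Across the 8 tumours the log2 levels of Muc1 and Muc4 had a Pearson r of 0.82, and Muc15 had an r of 0.10 with Muc1, 0.38 with Muc4 and 0.41 with Muc20. These are descriptions over 8 tumours in 2 groups, and the values of each pair come from the same libraries.

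Muc4 was set beside its partner Erbb2 in each tumour, with the limit that the placement of the rat Neu reads sets on the Erbb2 level. Among the high-amplified tumours MS1155.3 was highest in both, with 105019 normalized counts of Erbb2 and 156 of Muc4, and MS1163.1 was lowest in both, with 5284 and 5.25. Between the groups the order turned: the not/low-amplified tumours had the lowest Erbb2 and the highest Muc4. Muc15 was high in the high-amplified tumours with most Erbb2, at 13915 in MS1213.1 and 12421 in MS1155.3, and low in the pair with least, MS1163.1 and MS1163.2. The ASQC tumours had 8485 and 16509 with an Erbb2 level of 2783 or less. With tumours in separate groups, and 5 in the larger, no correlation was computed.

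**Figure D4:**
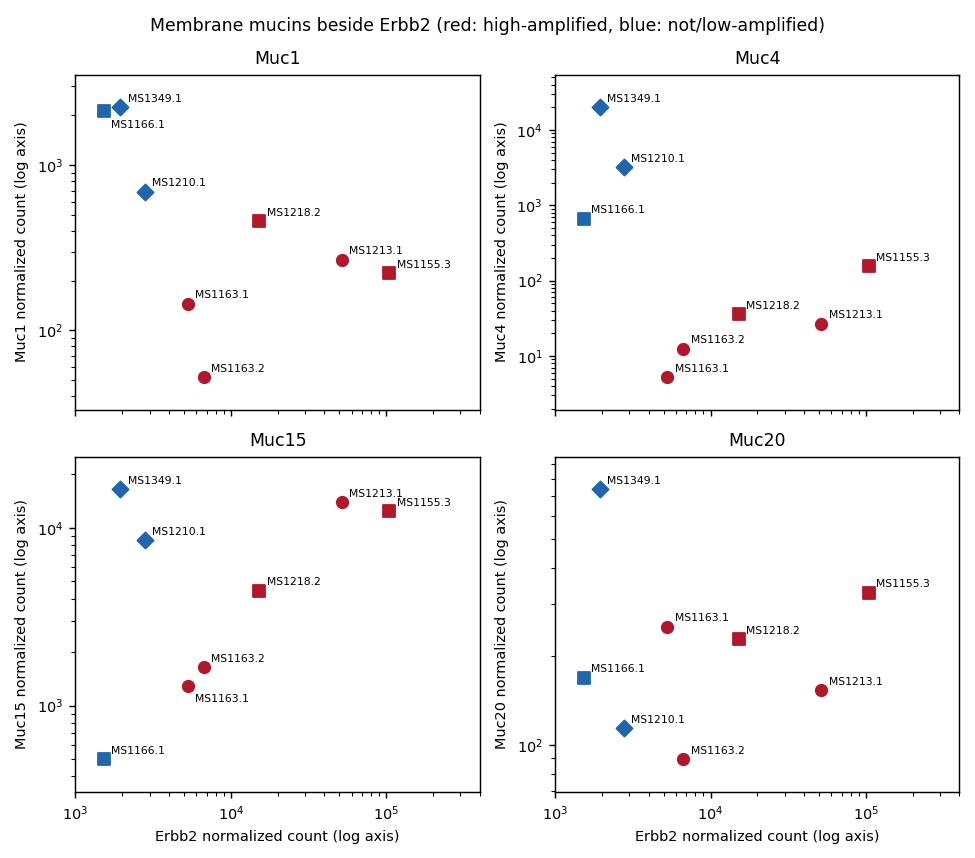
Normalized count of each membrane mucin against that of Erbb2 (both log axes) in the 8 epithelial tumours (circles, virgin; squares, parous AC(NST); diamonds, parous ASQC; red, high-amplified; blue, not/low-amplified). In the Muc4 and Muc1 panels the blue points lie above all red points.

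The other ErbB receptors are possible partners of Erbb2 in dimers. None of the 4 receptors was called by edgeR for amplification, histotype or parity, against 0.921%, 0.236% and 0% of all genes tested. Egfr was 2838 to 4268 in high-amplified and 1956 to 7279 in not/low-amplified tumours, and Erbb3 3196 to 7438 and 6356 to 9733. Erbb4 was 15.4 to 945 and 3.52 to 60.7 (log2 fold change 3.27 ± 1.44 SE, edgeR adjusted p = 0.212).

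In the sarcoma Muc4 and Muc20 had 0 reads, which allows up to 3 counts or a normalized level of 4.19. Against that limit Muc20 was at least 21.4-fold lower than in its lowest epithelial tumour, MS1163.2. Muc4 had only 5 reads in its lowest epithelial tumour, MS1163.1, and a difference between that tumour and the sarcoma was not detectable at this depth. Muc1 had 8 reads, a level of 11.2 (95% exact Poisson interval 4.82 to 22.0), 4.68-fold below the lowest epithelial tumour (interval 2.37 to 10.8). Muc15 had 7 reads, a level of 9.77 (3.93 to 20.1), 51.2-fold below MS1166.1 (24.8 to 127). These intervals cover counting error only, and with 1 sarcoma there was no test. By contrast Cd164, a sialomucin of most cell types, was at 2508 in the sarcoma and 2375 to 5970 in the epithelial tumours.

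None of the neighbours of Muc1 and Muc4 reported here was called, against 0.921% of all genes tested. Around Muc1, Mtx1 and Thbs3 on one side and Trim46, Krtcap2 and Dpm3 on the other had log2 fold changes between -0.43 and 1.22 (edgeR adjusted p 0.257 to 0.849). Beside Muc4 and Muc20, the transferrin receptor gene Tfrc had -0.06 ± 0.90 (SE, edgeR adjusted p = 0.972), the kinase gene Tnk2 0.54 ± 0.35 (SE, edgeR adjusted p = 0.383), 1700021K19Rik 0.60 ± 0.22 (SE, edgeR adjusted p = 0.154) and Fyttd1 -0.22 ± 0.38 (SE, edgeR adjusted p = 0.762). Zdhhc19 and Gm933 had almost no reads in the epithelial tumours. Around Muc15, the host gene Ano3, which encodes a membrane protein, was 30.9 to 149 in high-amplified and 15.5 to 26.0 in not/low-amplified tumours. Ano3 was not called (log2 fold change 1.62 ± 0.66 SE, edgeR adjusted p = 0.184). Fibin was 48.9 to 360.1 and 202 to 808 (edgeR adjusted p = 0.155). Slc5a12, Gm15130, 4930430A15Rik and Olfr1288 had too few reads to be tested.

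**Figure D5:**
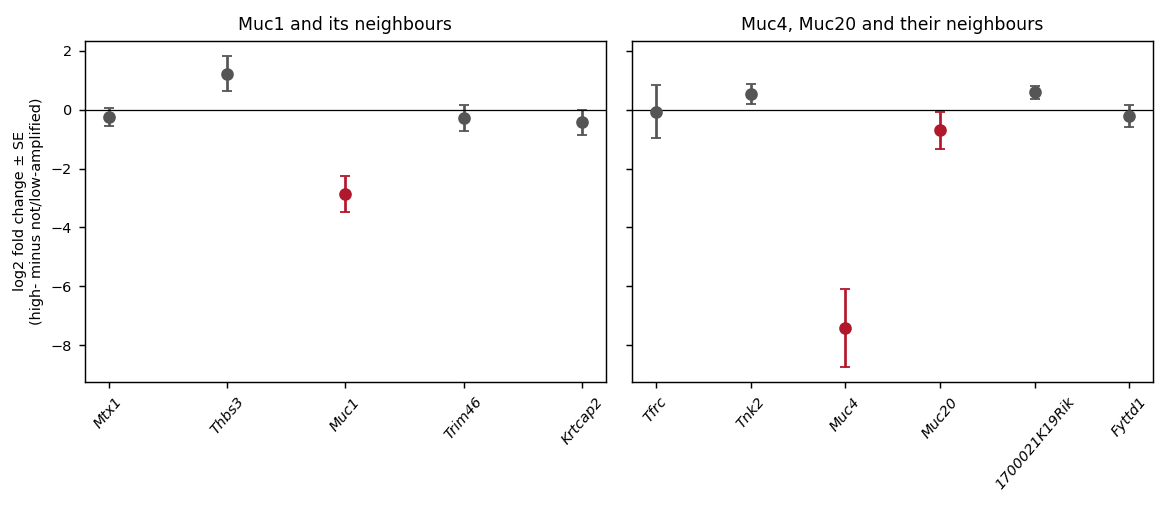
Log2 fold change of high-amplified minus not/low-amplified tumours (points, with bars of 1 SE, edgeR) for Muc1 and for Muc4 and Muc20 (red) and the nearest 2 tested genes on either side (grey), in the order of the chromosome. Muc1 at -2.85 and Muc4 at -7.41 lie below all of the neighbours shown.

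Apart from Cd164 and Emcn, the listed mucin genes beyond the 4 had low levels or no row. Of 11 listed symbols of other membrane-bound mucins and sialomucins, among them both Dpcr1 and its newer name Mucl3, 6 had a row and 2 had enough reads to be tested. Neither Cd164 (log2 fold change -0.40 ± 0.30 SE, edgeR adjusted p = 0.449) nor Emcn, the sialomucin of endothelium (0.23 ± 0.57 SE, edgeR adjusted p = 0.83), was called. Emcn was highest at 642 in MS1218.2, which also led the endothelial markers. Muc13 reached at most 16.1, in MS1349.1, and Dpcr1 at most 3.70. Of 8 secreted mucins, 5 had a row and 2 were tested, and neither was called. Muc2, the gel-forming mucin of the intestine, was 7.46 to 36.1 in high-amplified and 1.41 to 8.04 in not/low-amplified tumours (log2 fold change 2.32 ± 0.81 SE, edgeR adjusted p = 0.142). Ovgp1, the oviduct mucin, was 5.55 to 43.8 and 4.22 to 10.7 (log2 fold change 1.75 ± 0.75 SE, edgeR adjusted p = 0.202). Both log2 fold changes had the opposite sign to those of Muc4 and Muc1. Muc5ac and Muc5b reached at most 3.73.

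The enzymes that build mucin-type O-glycans were measured for 28 of 29 listed genes, and 23 were tested. Of these, 1 was called higher in high-amplified tumours and none was called lower, beside 0.921% of all genes called. Their log2 fold changes ran from -4.33 to 3.43, with 5 of 23 below 0. The median log2 fold change was 0.64, against 0.02 for all genes. The enzyme called was St6galnac4, which adds a sialic acid to the inner sugar of short O-glycans. It was 601 to 2619 in high-amplified and 88.0 to 200.4 in not/low-amplified tumours (log2 fold change 3.43 ± 0.54 SE, edgeR adjusted p = 0.0301). It kept that call in 9 of 20 alternative fits, with adjusted p up to 0.171. Of the most abundant others, the enzymes that attach the first sugar, Galnt1 (0.17), Galnt3 (0.77) and Galnt7 (0.84), and the core 1 synthase C1galt1 (0.26) had small log2 fold changes and were not called (edgeR adjusted p 0.314 to 0.799). None of the 23 was called between histotypes or by parity, against 0.236% and 0% of all genes tested.

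Of 10 epithelial transcription factors, none was called by amplification, histotype or parity, against 0.921%, 0.236% and 0% of all genes tested. The median log2 fold change of the 10 factors for amplification was -0.66, with 6 of 10 below 0. The Ets factors Ehf and Elf5, abundant in mammary epithelium, had log2 fold changes of -0.44 ± 0.52 (SE, edgeR adjusted p = 0.636) and -0.87 ± 0.44 (SE, edgeR adjusted p = 0.271). Gata3, a luminal factor, had 1.21 ± 0.44 (SE, edgeR adjusted p = 0.152), and Klf4, a factor of differentiating epithelium, had -2.45 ± 0.70 (SE, edgeR adjusted p = 0.0964). Klf4 was 3208 in MS1210.1 and 122 to 911 in the other 7 tumours.

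For each member the 3 genes with the most similar log2 levels over the 8 epithelial tumours were taken from 14006 genes. Nearest to Muc4 was Gjb2, which encodes a gap junction protein, with a Pearson r of 0.99. It was 572 to 1856 in high-amplified and 5250 to 22946 in not/low-amplified tumours, a split that its likeness to Muc4 already sets (log2 fold change -3.46). Bspry and Gm14446 followed, each with an r of 0.98. Muc1 was nearest to 2010109I03Rik, Dcxr and Wbp11, each with an r of 0.98. Few reads fell on 2010109I03Rik, at 0 to 8.33 in high-amplified and 14.1 to 22.6 in not/low-amplified tumours. Dcxr, a carbonyl reductase, was 134 to 631 and 1108 to 1882. Muc15 was nearest to 1700012B07Rik (0.97), Tox (0.96) and Pydc4 (0.96). In the epithelial tumours these reached at most 319, 30.0 and 337, and each fell to 0 in the not/low-amplified group. Muc20 was nearest to Snd1 (0.96), the peroxisomal enzyme gene Ehhadh (0.94) and Bglap3 (0.93). These values describe 8 tumours of 2 groups, measured in the same libraries.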

How the data were processed

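RNA of 9 snap-frozen BlgCre-NeuKI mammary tumours was sequenced after removal of ribosomal RNA, with 1 strand-specific library per tumour. The authors aligned reads to GRCm38 with STAR, kept uniquely placed reads and counted them per Ensembl gene with HTSeq. They deposited whole-number counts for each tumour and, for the 8 epithelial tumours, a normalized signal, the counts divided by a DESeq2 size factor. The sarcoma's counts were scaled here in the same way against the other 8.

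The deposited counts were fitted here with edgeR 4.0.16 (quasi-likelihood test, TMM scaling) over genes that reached 10 counts in 3 or more epithelial tumours, with p-values adjusted by Benjamini-Hochberg over all genes tested. A gene was called at an adjusted p under 0.05 and a change of over 2-fold. High-amplified and not/low-amplified, ASQC and AC(NST), and virgin and parous tumours were compared. Exact permutation tests used log2(normalized count + 1). DESeq2 1.42.0, limma 3.58.1, other scalings, filters, covariates and subsets were the alternatives. No labels tie the tumours to separate batches, and p-values measure the spread between single tumours. Gene lengths and positions came from GENCODE release M21.

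The members and lists were chosen with earlier results of these data known. Named are the 4 members, of each list every gene called and up to 4 others of highest mean level, the 3 nearest genes on either side of a member and the 3 most similar genes, with Erbb2 as a check. Of the genes so named, 1 is not reported here. At most 3 reads, a normalized level of 4.19 in the sarcoma, go with a count of 0.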

Additional observations from a re-analysis of the deposited data

Results flagged for a closer look

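Single tumours stood apart in 4 of 12 checks, which set the gap between the most extreme tumour and its nearest neighbour against the range of the group, for each member among the 5 high-amplified, the 6 AC(NST) and the 5 parous epithelial tumours. The critical values used flag about 1 in 20 groups of independent, normally distributed values. The groups here share tumours, so the 12 checks are not independent. Muc4 in MS1155.3 was 156 normalized counts, against 36.1 in the next high-amplified tumour, a gap of 0.795 of the range. Among the AC(NST) tumours, MS1166.1 stood apart in Muc4 at 663 (0.771 of the range) and in Muc1 at 2117 (0.803 of the range). It was the only not/low-amplified tumour of that histotype. Among the parous tumours, MS1349.1 stood apart in Muc4 at 20154 (0.842 of the range). On the log2 scale 0 of the 12 passed. No value of Muc15 or Muc20 stood apart.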

How the results depend on the processing

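Muc4 kept its direction in all 20 alternatives for amplification and its call in 9. The call was lost with parity as a covariate (log2 fold change -6.39), in the AC(NST) tumours alone (-3.84), in the parous tumours alone (-6.35), with the sarcoma included (-6.99) and with MS1163.1 and MS1163.2 summed (-7.16), each of which changes the tumours or terms of the fit. Muc1 kept its direction and gained a call with DESeq2 (-2.88) and without a filter (-2.91). Leaving out 1 tumour gave -8.61 to -5.35 for Muc4, -3.27 to -2.57 for Muc1, -0.88 to 0.60 for Muc15 and -1.09 to 0.61 for Muc20. Muc15 turned to 0.09 with limma at a pseudocount of 1 (0.0899) or 10 (0.0852), 0.0868 with the sarcoma, 0.0281 in the parous tumours and 3.73 in the AC(NST) tumours, and Muc20 turned to 0.29 in the AC(NST) tumours. Per luminal marker level Muc20 also turned (exact permutation p = 0.25), and Muc1 and Muc4 stayed at p = 0.0357. With the tumours of mouse MS1163 averaged both gave an exact permutation p of 0.0571. The causes were not tested.

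Between histotypes, leaving out 1 tumour gave 0.37 to 2.67 for Muc1, 4.45 to 7.96 for Muc4, 0.56 to 1.62 for Muc15 and -0.84 to 1.83 for Muc20, and with amplification as a covariate Muc1 turned to -0.48, Muc15 moved to 4.69 and Muc4 to 4.19, none of them called. DESeq2 gave no p there for Muc1 and Muc4. By parity the ranges were -3.53 to -2.44, -9.11 to -6.06, -2.55 to -0.11 and -1.38 to -0.34, with amplification as a covariate Muc4 was at -2.66 and Muc1 at -1.13, and DESeq2 called Muc1 (-2.89) and Muc4 (-8.35).

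Of all genes, 129 were called for amplification (3199 at an unadjusted p under 0.05). The count was 1598 with DESeq2, 210 with limma at a pseudocount of 10, 229 without a filter, 40 in the AC(NST) tumours, 31 with the MS1163 tumours summed, 3 with the sarcoma, and 0 with parity as a covariate or in the parous tumours. It ran from 1 (without MS1210.1) to 1255 (without MS1218.2). Between histotypes 33 became 522 with DESeq2, 171 without a filter, 0 with amplification as a covariate and 4 to 84 with 1 tumour left out. By parity 0 became 516 with DESeq2, and 0 to 147 with 1 tumour left out. No paired analysis was possible because the labels give no replicate numbers shared between groups.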
